A study of Homo sapiens with 4 samples.

Results

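The comparison described here is that of CTGF siRNA (siCTGF) against control siRNA (siControl) in untreated MDA-MB-231 cells, 2 of the 4 RNA-Seq libraries of the study, 1 per side. MDA-MB-231 cells derive from a human breast tumor of the triple-negative type and carry mesenchymal features. Both libraries came from cells that received an siRNA and no kahweol, and the other 2 came from cells with the same siRNAs that were also given 50 µM kahweol, a coffee diterpene, for 48 h. The study asked which transcripts differ once CTGF is lowered, with cell migration and the extracellular matrix in view. A single control siRNA, a single CTGF siRNA preparation and a single line were sequenced, so an effect of lower CTGF cannot be told apart from another effect of either siRNA, and no difference below has a replicate check or a p-value. Of the 35993 genes listed, 16599 reached a mean count of 10 when averaged across the 4 libraries and were compared.

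CTGF, whose gene symbol is CCN2, is a secreted matricellular protein that binds integrins, LRP receptors, heparan sulfate proteoglycans and growth factors such as TGF-beta. Its gene is switched on by YAP and TAZ together with TEAD factors and by TGF-beta through SMADs, and its product is known for promoting matrix deposition, adhesion and motility. An siRNA loads into the RNA-induced silencing complex and guides cleavage of the matching mRNA, and double-stranded RNA can also engage the sensors of the interferon system.

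In the siCTGF library, CTGF was lower, together with the keratins KRT15 and KRT80, cyclin D1, the protease CTSW and the lysine-breakdown enzyme DHTKD1. TPM4, GANAB, SCG2, NOLC1 and CCN1 were higher. The list of basement membrane and other collagens (median log2 difference of -0.25), laminins and nidogens (-0.32) and the mRNAs of the mitochondrial genome (-0.40) had lower medians than all genes together (-0.01). The median of the laminins and nidogens, a list that also holds agrin, ranged from -0.35 to -0.17 over the settings tried. Cytosolic ribosomal protein genes had a slightly higher median. Between the kahweol-treated libraries, the medians of these collagens, laminins and mitochondrial mRNAs were 0.11, -0.14 and 0.33. Several of the largest differences, including that of TXNDC5, came close to 0 when the reads of overlapping genes were added together.

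The untreated siControl and siCTGF libraries held 59129784 and 51830429 counts, with 21351 and 20700 genes detected. Mitochondrial rRNA made up 3.94% and 3.11% of them, and protein-coding genes took 92% and 92.5%. Vimentin (VIM), an intermediate filament of mesenchymal cells, was at 2870 and 3060 CPM (the counts scaled by TMM and library size), and the mRNAs of the estrogen receptor (ESR1, 0.096 and 0.0739 CPM) and the progesterone receptor (PGR, 0.592 and 0.166 CPM) were close to 0. ERBB2, which encodes HER2, was present at 66.8 and 74.7 CPM. Of 8 luminal epithelial markers, 1 lay under 1 CPM in both libraries, and KRT8 was the highest at 363 and 342 CPM. The luminal markers summed to 1060 and 978 CPM, beside 4480 and 4730 CPM for 6 mesenchymal markers, VIM among them. Of 8 fibroblast markers, 6 lay under 1 CPM in both libraries, among them COL1A2, POSTN and LUM, and PDGFRB was the highest at 12.4 and 9.63 CPM. Of 5 endothelial markers, 2 lay under 1 CPM, and KDR was the highest at 4.61 and 3.64 CPM. Of 6 leukocyte markers, 4 lay under 1 CPM, PTPRC among them, and CD68 was at 43.8 and 45.2 CPM. The summed levels were 17.1 and 13 CPM for the fibroblast, 8.12 and 6.61 CPM for the endothelial and 46 and 46.9 CPM for the leukocyte markers, and their part in the differences was not tested.

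CTGF (gene ID 1490, chromosome 6 from 132269316 to 132272512 on the minus strand in GRCh37) was counted 9927 times in siControl and 3440 times in siCTGF. These counts correspond to 159 and 63.6 CPM, a fold of 0.400 and a log2 difference of -1.32. The 95% counting interval was -1.40 to -1.24; such intervals, given throughout, take 2 reads as 1 fragment and cover counting error only. In the kahweol-treated pair, which shares no library with the untreated one, the log2 difference was -2.55. In bulk RNA, fewer cells with a lowered mRNA and a uniformly lower level per cell cannot be told apart.

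Of the 5 CCN genes compared, 2 were over 1.3-fold and CTGF was the 1 under 0.7-fold. Of all genes kept, 9.63% were over and 8.99% under these folds. CCN1, a matricellular relative and fellow YAP/TAZ target, was at 70.8 CPM in siControl against 118.9 CPM in siCTGF, a log2 difference of 0.75 (0.67 to 0.83), against -0.28 in the kahweol-treated pair. CCN4, named after its value was seen, had 20 and 36 counts (0.97, -0.14 to 2.33). CCN3 was at 5.90 and 5.63 CPM, a log2 difference of -0.07 (-0.39 to 0.25). Of 24 YAP/TAZ target genes, 1 (4.17%) was over 1.3-fold, 2 (8.33%) were under 0.7-fold and 21 lay between. The higher one was CCN1, and the lower ones were ANKRD1 and CTGF itself. Neither share was above that of all genes. The folds of 1.3 and 0.7 are the thresholds of the study and are used throughout. ANKRD1, a stress-responsive ankyrin repeat protein, was at 453 CPM in siControl against 303 CPM in siCTGF, a log2 difference of -0.58 (-0.62 to -0.54). The YAP/TAZ, TEAD and upstream Hippo factors themselves, 16 genes, all lay between the thresholds, with YAP1 at 0.29 and TEAD1 at 0.06 on the log2 scale.

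To show the regulatory sequence behind CTGF and ANKRD1, the stretches of their RefSeq promoters (GRCh38.p14) that hold a TEAD site are given on the strand of the gene, 5′ to 3′, with each match to GGAATG in capitals. The CTGF stretch lies at chr6:131951422-131951507 on the minus strand, from 135 to 50 bases before the start, and that of ANKRD1 at chr10:90921170-90921255 on the minus strand, from 168 to 83 bases before the start.
CCN2: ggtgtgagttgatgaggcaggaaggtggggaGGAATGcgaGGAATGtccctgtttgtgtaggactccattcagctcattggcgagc
ANKRD1: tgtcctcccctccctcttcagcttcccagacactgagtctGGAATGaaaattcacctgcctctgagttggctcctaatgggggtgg
On either strand, the 250 bases before the start held this motif in 11.9% of 35116 promoters. Of 20 promoters of YAP/TAZ target genes, which belonged to 17 genes, 9 (45%) held it. CTGF had 3 matches and ANKRD1 had 2. A match is a description of the letters and not a measured binding site, and its relation to the differences was not tested. Of the genes shown, CTGF is itself the target of the siRNA. CCN1, the YAP/TAZ target over 1.3-fold, had no promoter among those searched and could not be shown. The remaining targets mostly lay between the thresholds.

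Over all genes kept, 1598 were over 1.3-fold in siCTGF (9.63%) and 1493 were under 0.7-fold (8.99%). Of these, 808 (4.87%) and 821 (4.95%) also had a counting interval that left out 0. At least a 2-fold difference was seen for 322 genes (1.94%) in the higher and 494 (2.98%) in the lower direction. The calls were unevenly spread over expression levels. Of the 2915 genes with a mean count from 10 to 50, 27% were over and 29.1% under the thresholds, and the interval left out 0 for 424 of these 1635 calls. Of the 7885 genes with a mean count of 1000 or more, 2.97% were over and 0.698% under, and all 289 calls had an interval that left out 0. The thresholds lie at unequal distances from 0, at 0.38 and -0.51 on the log2 scale. With a lower threshold of 1.3-fold as well, chosen after seeing the data, 234 well-counted genes were higher and 180 lower, and over all genes 1598 were higher and 2257 (13.6%) lower.

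**Figure D1:**
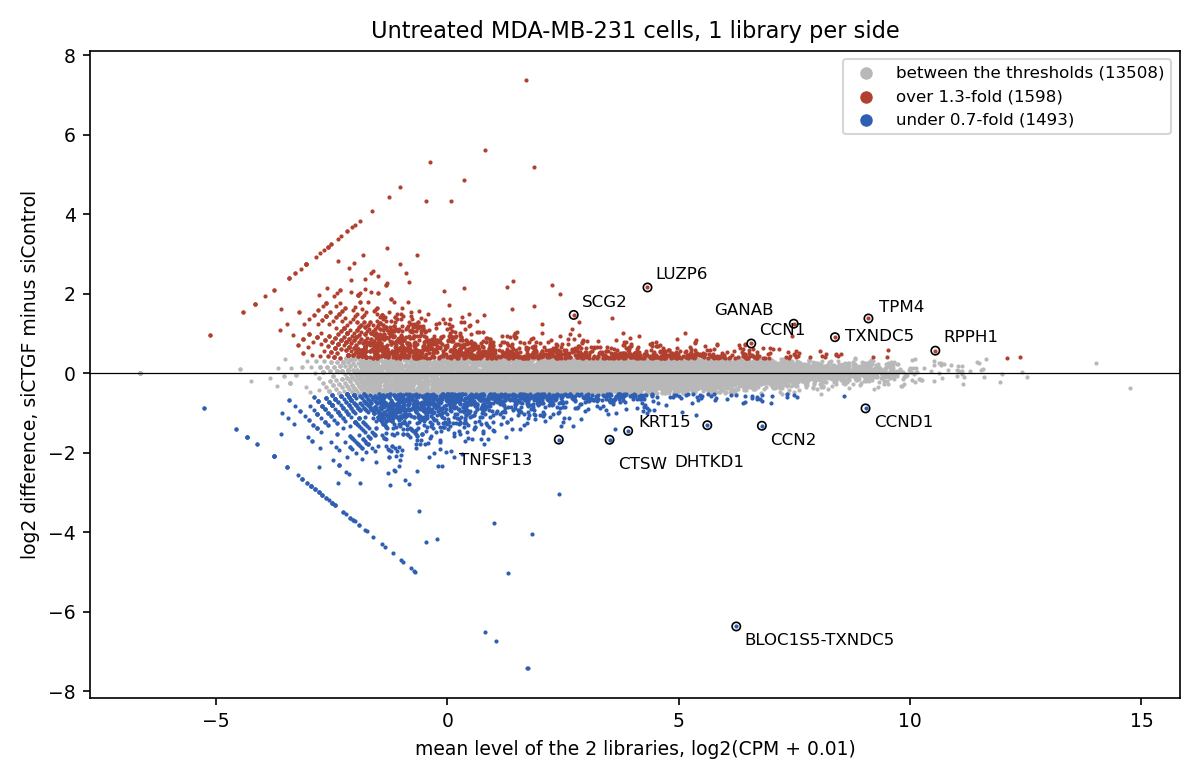
Log2 difference between the untreated siCTGF and siControl libraries (y axis) against the mean level of both, log2(CPM + 0.01) (x axis), for 16599 genes. Each point is 1 gene; red points (1598) are over 1.3-fold and blue points (1493) under 0.7-fold, and the cloud narrows toward high levels, where TPM4, TXNDC5 and CCND1 stand apart from it.

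The 15 highest protein-coding genes, ranked by the bound of the counting interval nearest 0 among genes averaging 200 counts or more, were led by LUZP6, TPM4, GANAB and SCG2. TPM4, a tropomyosin that lines actin filaments, was counted 19061 times in siControl and 42899 times in siCTGF (305 and 793 CPM), a log2 difference of 1.38. GANAB, the alpha chain of the glucosidase that trims glycoproteins as they fold, was at 106 and 252 CPM, a difference of 1.25. Both differences were of similar size in the kahweol-treated pair (1.37 and 1.16). SCG2 (gene ID 7857, chromosome 2 from 224461658 to 224467079 in GRCh37), a granin from which secretory granules release neuropeptides, was at 3.50 CPM in siControl against 9.75 CPM in siCTGF, a log2 difference of 1.47 (1.14 to 1.80). It was lower in level than the other leading genes, and its difference in the kahweol-treated pair was 0.70 (0.24 to 1.18).

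NOLC1 (gene ID 9221, chromosome 10 from 103911933 to 103923628), a nucleolar chaperone of snoRNA particles, was at 119.1 and 230 CPM, a log2 difference of 0.95 (0.89 to 1.01). CDK14, a cyclin-dependent kinase of Wnt signaling, was at 12.0 and 23.1 CPM (0.95, 0.76 to 1.14). IGFBPL1, a relative of the insulin-like growth factor binding proteins, was at 4.08 and 8.90 CPM (1.12, 0.81 to 1.44). These genes also stood above siControl in the kahweol-treated pair, at 0.35 for NOLC1, 0.68 for CDK14 and 1.01 for IGFBPL1, of which the value of NOLC1 lay under the 1.3-fold threshold. ZDHHC16, a palmitoyltransferase, had a log2 difference of 0.84 (0.72 to 0.97), MESD, the chaperone of LRP5 and LRP6, of 0.79 (0.67 to 0.91), and MED11, a subunit of the Mediator head, of 1.02 (0.81 to 1.24). MED11 overlaps CXCL16, and MESD overlaps CEMIP, on the opposite strand, and the strand setting of the counting is not given in the sources used here.

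The 15 lowest genes began with CTSW (gene ID 1521, chromosome 11 from 65647308 to 65651212), a cysteine protease known from cytotoxic lymphocytes, which was at 17.3 CPM in siControl against 5.39 CPM in siCTGF. Its log2 difference was -1.67 (-1.95 to -1.41), and -0.65 in the kahweol-treated pair. CTSW overlaps FIBP on the opposite strand, and PTPRC, the common leukocyte antigen, had 4 and 0 counts. The keratins KRT15 and KRT80 had log2 differences of -1.45 and -1.04 and DHTKD1, a mitochondrial dehydrogenase subunit of lysine breakdown, of -1.31. KRT81 was a further keratin under the threshold, at 24.7 and 12.9 CPM (-0.94, -1.13 to -0.76). All of KRT15, KRT80 and DHTKD1 were also under 0.7-fold in the kahweol-treated pair.

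LFNG (gene ID 3955, chromosome 7 from 2552163 to 2568811), the Fringe glycosyltransferase that modifies Notch receptors, was at 9.42 CPM in siControl against 3.73 CPM in siCTGF, a log2 difference of -1.33. With kahweol its difference was -0.22 and its interval spanned 0. SAA1, an acute-phase apolipoprotein, was at 26.5 and 13.2 CPM, a fold of 0.498. PIK3R3, a regulatory subunit of PI3K, was at 10.3 and 4.60 CPM (-1.15, -1.48 to -0.86). MIGA1, a protein of mitochondrial fusion, was at 44.4 and 22.7 CPM (-0.97, -1.11 to -0.83), and SEC14L6, a SEC14-like lipid-binding protein, at 7.87 and 3.34 CPM (-1.23, -1.61 to -0.89). PIK3R3, MIGA1 and SEC14L6 were also under 0.7-fold in the kahweol-treated pair, at -0.53, -0.54 and -0.73. CCND1, which drives entry into S phase, had the highest count of the group, 42602 in siControl and 19992 in siCTGF, and a log2 difference of -0.88.

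**Figure D2:**
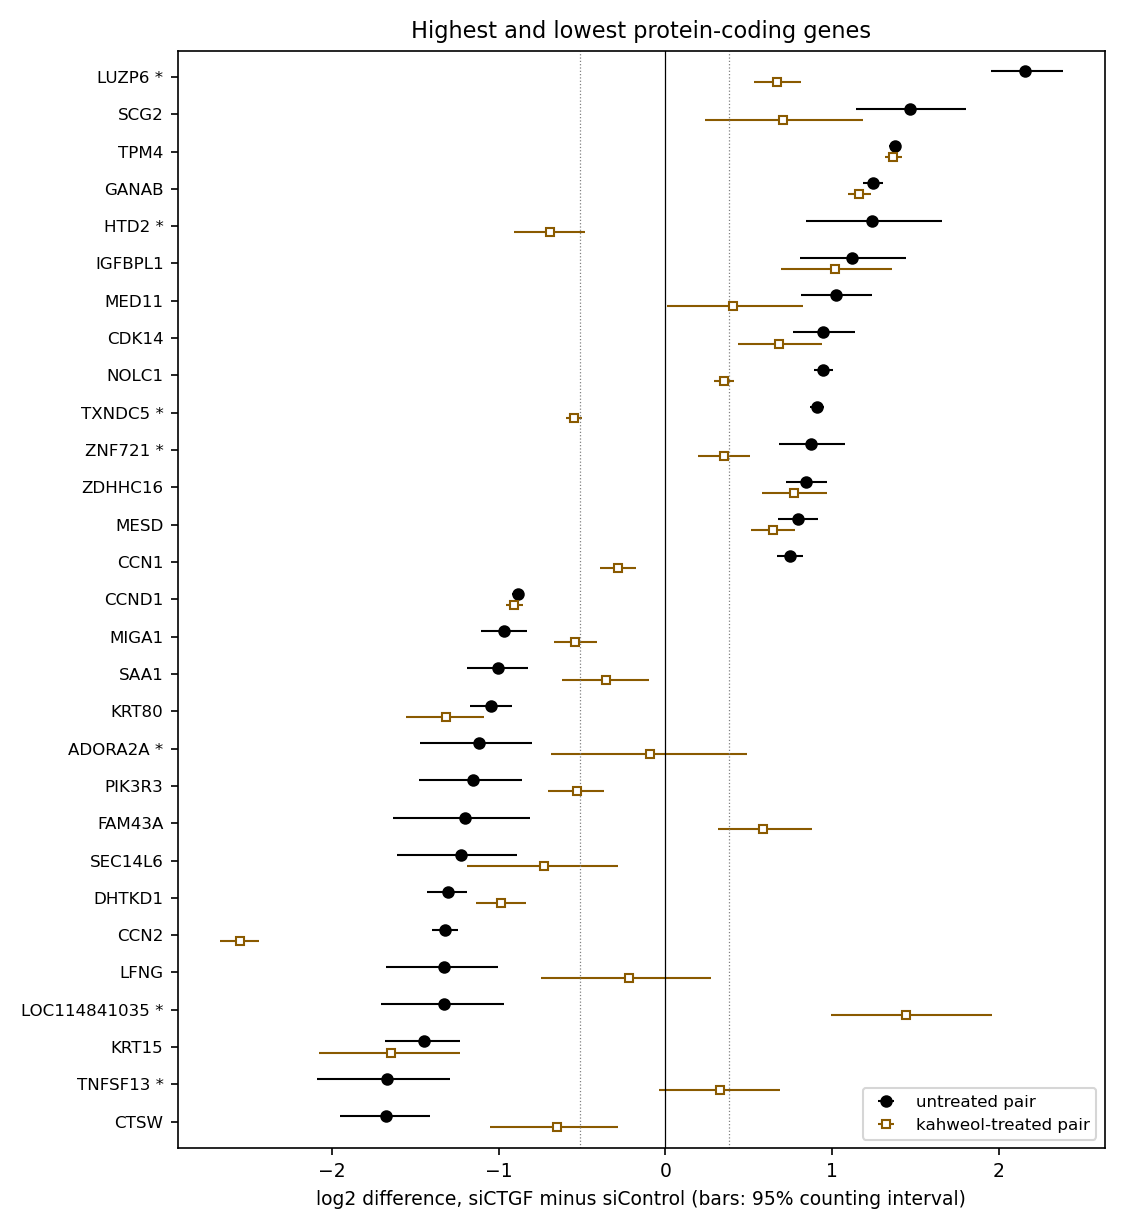
Log2 difference of siCTGF minus siControl (x axis) for the reported genes among the 15 highest and 15 lowest protein-coding ones (y axis), in the untreated pair (black circles) and the kahweol-treated pair (open squares), with 95% counting intervals; dotted lines mark 1.3-fold and 0.7-fold, and a star marks a gene with a same-strand overlapping gene. TPM4, GANAB and CCND1 have nearly the same value in both pairs, whereas HTD2, TXNDC5, FAM43A and LOC114841035 lie on opposite sides of 0.

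Of these 30 genes, 7 overlap another gene on the same strand, and for 6 of them the summed count of the overlapping genes lay between the thresholds. TXNDC5, a disulfide isomerase of the endoplasmic reticulum, had 14449 counts in siControl and 23469 in siCTGF, a log2 difference of 0.91. The read-through gene BLOC1S5-TXNDC5, which spans it, had 9358 counts in siControl and 96 in siCTGF. The sum of both was 23807 and 23565 counts, a difference of 0.19. In the kahweol-treated libraries the split was the other way round, with 34 counts for the read-through gene in siControl and 6919 in siCTGF, and the sum differed by 0.06.

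The ligand gene TNFSF13, which encodes APRIL, followed the same pattern. It had 505 counts in siControl and 136 in siCTGF, a log2 difference of -1.67, and its read-through partner TNFSF12-TNFSF13 had 0 and 349. Their sum, 505 and 485 counts, differed by 0.15 (-0.11 to 0.41). LUZP6, a small reading frame inside the MTPN transcript, had 457 counts in siControl and 1773 in siCTGF (2.16), MTPN had 15896 and 13093, and the sum differed by 0.07. HTD2, a dehydratase of mitochondrial fatty acid synthesis that shares a transcript with RPP14, had 152 and 313 counts alone (1.24), and the sum differed by 0.03. For the adenosine receptor gene ADORA2A the difference went from -1.12 to -0.24 after adding SPECC1L-ADORA2A, and for LOC114841035 from -1.33 to -0.47 after adding FKBP2. ZNF721, a zinc finger gene, kept a difference of 0.79 (0.64 to 0.94) when summed with ABCA11P.

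**Figure D3:**
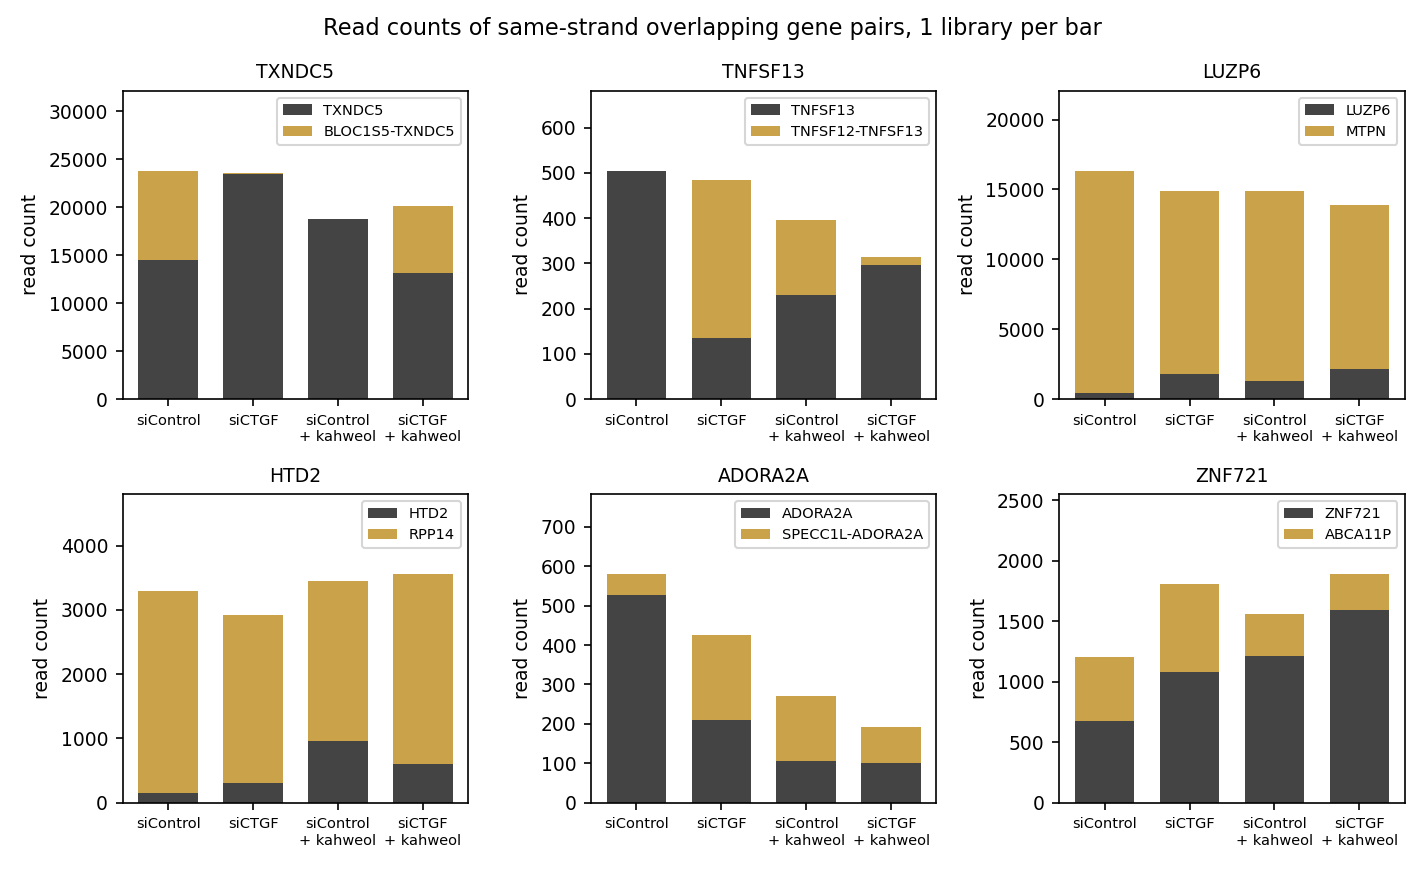
Read counts (y axis) of 6 pairs of same-strand overlapping genes in the 4 libraries (x axis), stacked so that the bar height is the sum of the pair. The share taken by each gene shifts between libraries, and for TXNDC5 the sum stays at 23807 and 23565 counts in the untreated libraries while BLOC1S5-TXNDC5 goes from 9358 to 96.

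Genes of the extracellular matrix are shown first among the gene lists, since the study relates CTGF to this compartment. For the counts of list members past the thresholds, the shares of all genes were 9.63% over and 8.99% under. Fibrillar collagens, the rope-forming collagens, had a median log2 difference of -0.42 over 7 genes, with 0 over 1.3-fold and 2 under 0.7-fold, beside a median of -0.01 over all genes. This median depended on the setting: it was -0.29 over the 5 members averaging 100 counts or more, -0.10 with log2(TPM + 1) and -0.05 with log2(FPKM + 1). COL11A2 had 139 counts in siControl against 81 in siCTGF (-0.56, -1.20 to -0.02). The other one under the threshold, COL3A1, named after its value was seen, had 8 and 3 counts. COL5A1 was at 45.1 and 36.8 CPM (-0.29, -0.41 to -0.18). With kahweol, the median of the 7 genes was 0.31.

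Basement membrane and other collagens had a median of -0.25 over 18 genes, with 1 over and 4 under the thresholds. COL15A1 (2.54 and 0.868 CPM, -1.51), COL7A1, the anchoring fibril collagen (80.8 and 52.0 CPM, -0.64), and COL18A1, the source of endostatin (212 and 146 CPM, -0.54), were under 0.7-fold, as was COL16A1 (-0.66), named after its value was seen. After removal of a trend with GC content and transcript length, COL7A1 (-0.49) and COL18A1 (-0.38) lay between the thresholds. The network collagens COL4A1 and COL4A2 lay between the thresholds at -0.22 and -0.51. COL8A1 was the member over 1.3-fold, at 42.3 CPM in siControl against 70.4 CPM in siCTGF, a log2 difference of 0.73 (0.63 to 0.84). COL7A1 and COL18A1 were not lower in the kahweol-treated pair, where their differences were 0.55 and 0.10. The median of the list was 0.11 in that pair.

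Laminins and nidogens, the sheet-forming glycoproteins of basement membranes, had a median of -0.32 over 13 genes, in a list that also holds agrin. LAMA5 was at 105 CPM in siControl against 62.9 CPM in siCTGF, a log2 difference of -0.74 (-0.83 to -0.66). AGRN, the heparan sulfate proteoglycan agrin, was at 156 and 105 CPM (-0.57, -0.64 to -0.50), and LAMA1 had a log2 difference of -0.54. After removal of the same trend, AGRN (-0.40) and LAMA1 (-0.50) lay between the thresholds. LAMB3, a chain of laminin-332, was at 986 and 789 CPM (-0.32, -0.35 to -0.30) and LAMC1 at 301 and 236 CPM (-0.35, -0.39 to -0.30), both between the thresholds and named after their values were seen. LAMC3 was the only one over 1.3-fold, with 108 and 141 counts (0.58, 0.05 to 1.12). With kahweol, the list had 0 genes over and 1 under the thresholds and a median of -0.14.

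Matrix receptors and adhesion components differed at some members. Of 22 integrin subunits, 2 (9.09%) were over and 4 (18.2%) under the thresholds (median -0.13), beside 9.63% and 8.99% of all genes. Neither higher one had an interval above 0. The lower ones included ITGA7, a laminin receptor subunit (5.71 and 2.81 CPM, -1.01), and ITGB2, the leukocyte integrin chain (10.8 and 5.76 CPM, -0.89). ITGB1, the chain shared by most matrix integrins, was at 1257 and 1135 CPM (-0.15). Of 38 focal adhesion plaque genes, 35 lay between the thresholds, 0 were over and 3 (7.89%) were under. Among the lower ones were LPXN, a paxillin relative (7.09 and 4.21 CPM, -0.75), and NEDD9, a scaffold of the p130Cas family (105 and 38 counts, -1.21). Of 13 proteoglycans, 2 (15.4%) were over and 4 (30.8%) under. The syndecan SDC4 was at 243 CPM in siControl against 341 CPM in siCTGF (0.49, 0.44 to 0.53), whereas SDC2 was at 10.2 and 6.63 CPM (-0.62, -0.89 to -0.35) and CSPG4 at 51.8 and 35.7 CPM (-0.54, -0.66 to -0.42). SPARC, a collagen-binding matricellular protein, had a log2 difference of -0.81.

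Collagen-processing enzymes had a median of -0.01 over 23 genes, with 2 over and 2 under the thresholds. SERPINH1, the collagen chaperone HSP47, was at 78.1 and 101.8 CPM (0.38, 0.30 to 0.46), at the threshold, and LOXL1, a crosslinking oxidase, at 11.7 and 7.15 CPM (-0.70, -0.96 to -0.45). Of 22 matrix proteases and inhibitors, 3 were over and 3 under. The collagenase MMP1 was over 1.3-fold (19.6 and 30.7 CPM, 0.64), and PLAT, tissue plasminogen activator, was under 0.7-fold at 159 CPM in siControl against 94.6 CPM in siCTGF (-0.75, -0.82 to -0.68). Of the ADAM and ADAMTS proteases, ADAM15 was higher (0.61) and ADAMTS15 (-0.91) and ADAMTS9 (-0.76) were lower, with 13 of 16 between. Vinculin (VCL), which links adhesions to actin, and COL4A4 lay between the thresholds at -0.14 and -0.12. COL11A1 had 5 counts in siControl and 13 in siCTGF, under the count minimum, with an interval of the log2 difference from -0.69 to 5.13.

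**Figure D4:**
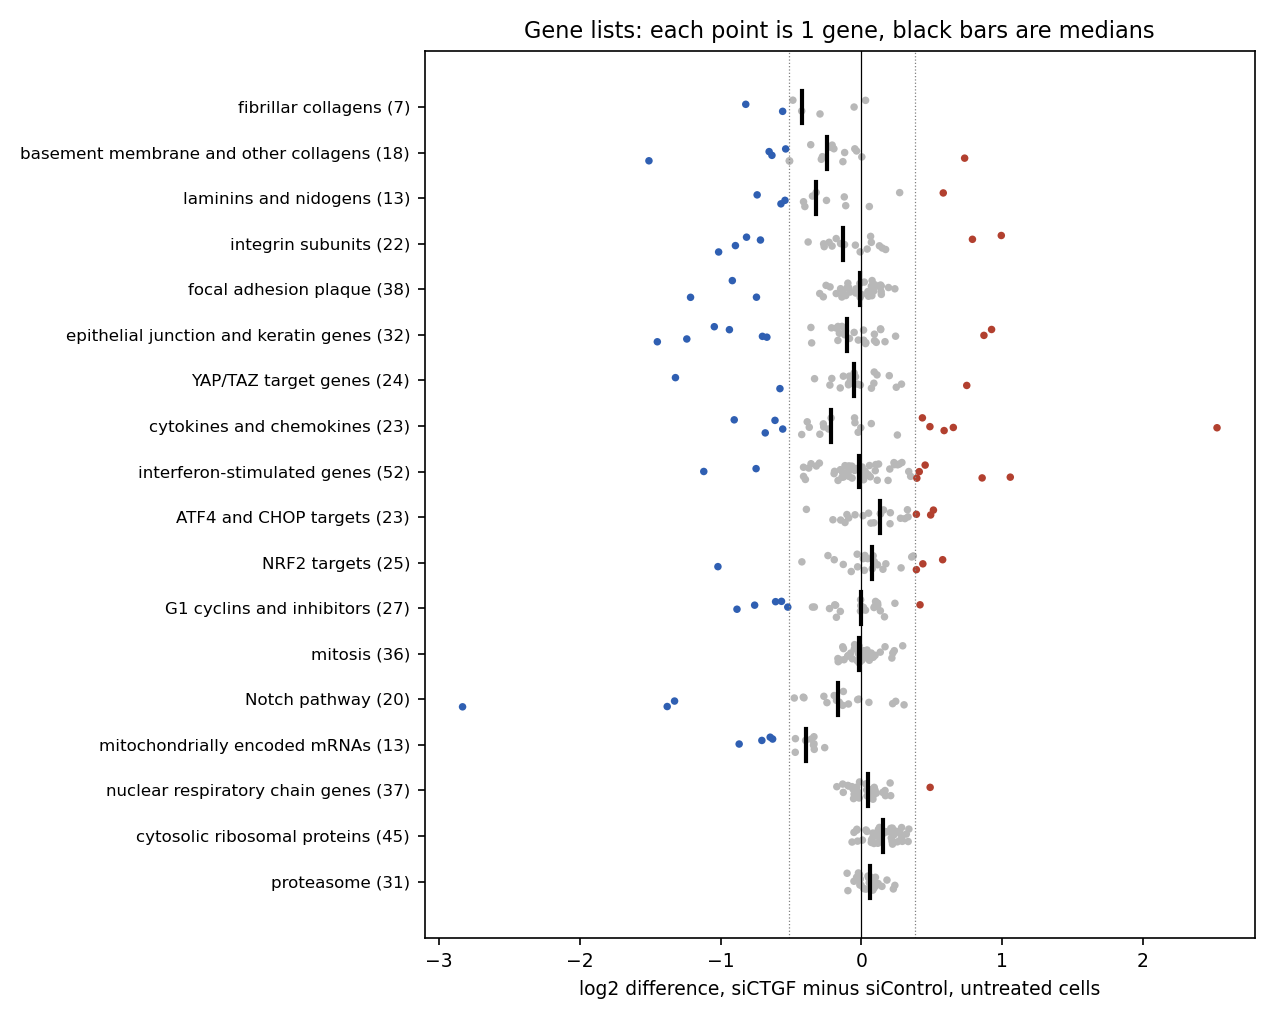
Log2 difference of siCTGF minus siControl in untreated cells (x axis) for the members of 18 gene lists (y axis, number of genes in brackets). Each point is 1 gene, black bars are medians, red points are over 1.3-fold and blue points under 0.7-fold. The medians of fibrillar collagens (-0.42, which depended on the setting), laminins and nidogens with agrin (-0.32) and mitochondrially encoded mRNAs (-0.40) lie left of 0. That of cytosolic ribosomal proteins (0.16) lies right of it.

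Epithelial junction and keratin genes counted 2 over and 6 under the thresholds among 32, with a median of -0.10. Besides the keratins above, the lower members included the tight junction genes CLDN3 (107 and 38 counts, -1.24) and TJP3 (885 and 470 counts, -0.70), both named after their values were seen. CLDN1 was higher, with 153 counts in siControl and 244 in siCTGF (0.87, 0.47 to 1.32), and KRT8 differed by -0.08. Of 10 EMT factors and mesenchymal markers, 0 were over and 2 under. SNAI1, a repressor of E-cadherin, had 176 and 91 counts (-0.73, -1.28 to -0.20), and VIM differed by 0.09. Among the tropomyosins and regulators of myosin light chain, TPM4 was over 1.3-fold and MYLK, the myosin light chain kinase, was under 0.7-fold (132 and 84.6 CPM, -0.64), with 20 of 23 between. None of the 32 actin turnover genes or the 12 tubulins passed a threshold. SEPTIN8, a filament-forming GTPase, was at 108 CPM in siControl against 64.9 CPM in siCTGF (-0.73, -0.82 to -0.65), the only one of 10 septins past a threshold.

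Growth control genes differed at a few members. Of 27 G1 cyclins, CDK inhibitors and E2F factors, 1 (3.7%) was over and 5 (18.5%) were under the thresholds, beside 9.63% and 8.99% of all genes. CDK6, the kinase partner of D cyclins, was at 196 CPM in siControl against 262 CPM in siCTGF (0.42, 0.37 to 0.47), opposite to CCND1. The inhibitor genes CDKN1A, which encodes p21, at 192 and 134 CPM (-0.52, -0.58 to -0.46), and CDKN2D, at 23.2 and 13.7 CPM (-0.76, -0.95 to -0.58), were lower, as were CDKN1C (-0.57) and E2F5 (-0.61), named after their values were seen. After removal of the trend with GC content and length, CDKN1A (-0.48) lay between the thresholds and 3 of the 27 genes were under. TYMS, thymidylate synthase, was the only one of 38 DNA replication genes past a threshold (29.6 and 46.5 CPM, 0.65), and it overlaps ENOSF1 on the opposite strand. All 36 mitosis genes lay between the thresholds, from -0.17 to 0.29.

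Of 20 p53 target genes, 0 were over and 3 (15%) under, beside 9.63% and 8.99% of all genes. The 3 were CDKN1A, the stress-induced TP53INP1 (40.1 and 26.2 CPM, -0.61) and the DNA damage sensor DDB2 (22.4 and 15.1 CPM, -0.57). After removal of the trend with GC content and length, CDKN1A (-0.48) lay between the thresholds and 2 of the 20 were under. In the Notch pathway, 0 of 20 genes were over and 3 (15%) under, with a median of -0.17. The ligand DLL4 had 58 counts in siControl and 18 in siCTGF (-1.38), while the target HEY2, named after its value was seen, had 15 and 0. They lay on the same side as LFNG, with far fewer counts. Of 30 Wnt pathway genes, 2 (6.67%) were under and 0 over, with the ligand WNT9A at 104 and 29 counts (-1.57, -2.65 to -0.81). The ERK output and feedback genes had a median of -0.21 over 23 genes with 1 under the threshold, CCND1. Of 35 growth factors and receptor kinases, 0 were over and 4 (11.4%) under. Among the lower ones were EGF (209 and 99 counts, -0.86), PDGFD (670 and 369 counts, -0.65) and PDGFB (300 and 181 counts, -0.52). IGFBP4, a secreted binder of insulin-like growth factors, was at 59.7 CPM in siControl against 97.8 CPM in siCTGF (0.71, 0.63 to 0.80). Of 26 TGF-beta ligands and receptors, the receptor gene ACVR2B (0.48) and the coreceptor ENG (0.40) were over 1.3-fold, and 1 was under 0.7-fold, at -1.51. Of 18 SMADs and TGF-beta target genes, TAGLN (0.41) was over 1.3-fold. The inhibitory SMAD6, with 271 and 88 counts (-1.39, -1.95 to -0.92), was under 0.7-fold. In the kahweol-treated pair, SMAD6 differed by 0.39 (-0.27 to 1.08).

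Interferon-stimulated genes, which report sensing of double-stranded RNA among other signals, had 5 members over and 2 under the thresholds among 52, with a median of -0.02. IFI27 was at 4.34 CPM in siControl against 7.89 CPM in siCTGF (0.86, 0.54 to 1.18), IFI44 had 3314 and 3929 counts (0.45, 0.36 to 0.55), and RSAD2, the antiviral enzyme viperin, had 42 and 78 counts (1.06, 0.30 to 1.94). PLSCR1 (0.41) and the RNA sensor IFIH1 (0.39), named after their values were seen, were the other members over 1.3-fold. ISG15 and IFIT1, abundant reporters of the response, lay between the thresholds at 0.24 and 0.35. The share of members over 1.3-fold, 9.62%, was close to that of all genes (9.63%). In the kahweol-treated pair, 14 of the 52 were over and 2 under, beside 2441 genes over (14.7%) and 1299 under (7.83%) among all genes, and IFI27, IFI44 and RSAD2 differed by 1.08, 0.77 and 1.10.

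The promoters of IFI27, IFI44 and RSAD2 are shown because the rule for naming genes picked these 3 as the highest members of the list. All 3 carry the core of the interferon-stimulated response element before at least 1 of their 2 RefSeq starts. For each gene, the start whose match lies nearest to it was chosen for display. Each stretch is from RefSeq (GRCh38.p14), on the plus strand, 5′ to 3′, with matches to GAAANNGAAA or its reverse complement in capitals. They lie at chr14:94110601-94110690, chr1:78649731-78649788 and chr2:6877592-6877681.
IFI27: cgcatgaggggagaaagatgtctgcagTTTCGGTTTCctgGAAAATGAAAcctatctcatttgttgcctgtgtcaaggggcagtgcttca
IFI44: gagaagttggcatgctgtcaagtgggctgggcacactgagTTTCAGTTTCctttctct
RSAD2: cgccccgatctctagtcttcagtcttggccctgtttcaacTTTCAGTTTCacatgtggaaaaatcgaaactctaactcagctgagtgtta
The motif occurred on either strand in 3.02% of 35116 promoters of 250 bases. Of 54 promoters of interferon-stimulated genes, 31 (57.4%) held it. These promoters belonged to 41 genes, of which 27 had the motif in any of their promoters. At the starts shown, IFI27 had 2 matches and IFI44 and RSAD2 had 1 each. Of these 27 genes, 5 were over 1.3-fold, 0 under 0.7-fold and 22 between. Of the 14 without the motif, 0 were over, 1 was under and 13 lay between. Of all genes kept, 9.63% were over and 8.99% under. The 41 genes are a part of the 52 in the list, and the others had no promoter among those searched. The relation of the letters to the differences was not tested.

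Of 14 further RNA sensors and interferon pathway genes, a list that leaves out IFIH1, 0 were over and 1 was under. This was DHX58, which encodes the sensor LGP2, at 15.8 CPM in siControl against 10.9 CPM in siCTGF (-0.53, -0.75 to -0.33), and at -0.48 after removal of the trend with GC content and length, between the thresholds. None of the 13 genes of the RNA interference machinery passed a threshold (median -0.15), with the slicer AGO2 at 0.17, nor did any of 15 genes of MHC class I presentation. Cytokines and chemokines had 5 members over and 4 under among 23, with a median of -0.22. IL6 (188 and 229 counts, 0.49) and IL24 (220 and 258 counts, 0.43) were over 1.3-fold, and IL1B was under 0.7-fold at 132 CPM in siControl against 89.7 CPM in siCTGF (-0.56, -0.63 to -0.49). The interferon-induced chemokine CXCL11, named after its value was seen, had 8 and 50 counts (2.53), and CXCL3 had 178 and 100 (-0.61). BCL3 was the only one of 19 NF-kappaB factors and feedback genes past a threshold (149 and 85 counts, -0.59).

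Stress and metabolic genes differed at single members. Of 23 ATF4 and CHOP targets, 3 were over and 0 under, with a median of 0.13 (0.02 with log2(TPM + 1)): TRIB3, a pseudokinase (76.1 and 108.5 CPM, 0.51), CHOP itself (DDIT3, 18.4 and 25.9 CPM, 0.49) and the cystine transporter SLC7A11 (144 and 188 CPM, 0.39). Of 25 NRF2 targets, 3 were over and 1 under, with ME1, malic enzyme, at 39.2 and 58.5 CPM (0.58, 0.47 to 0.69) and FTH1, ferritin heavy chain, at 143 and 194 CPM (0.44, 0.38 to 0.49). The shares over 1.3-fold were 13% and 12%, beside 9.63% of all genes. Of 6 genes in the metallothionein list, 2 were over and 0 under, with MT1E, a zinc-binding metallothionein, at 24.1 and 33.3 CPM (0.47, 0.32 to 0.61). In the endoplasmic reticulum list, GANAB and the chaperone HSPA5 (102 and 143 CPM, 0.48) were over and 28 of 30 lay between. HSPB8, a small heat shock protein, was under 0.7-fold (337 and 140 counts, -1.05), the only one of 17 heat shock genes past a threshold. INSIG1, the sterol sensor that retains SREBP, was the only one of 27 cholesterol synthesis genes past a threshold, at 216 CPM in siControl against 319 CPM in siCTGF (0.56, 0.51 to 0.60). No gene of fatty acid synthesis (17), the BCL2 family (16), the proteasome (31) or the splicing factors (30) passed one.

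All 13 mRNAs of the mitochondrial genome were lower in siCTGF, with a median of -0.40 and 4 of them under 0.7-fold. ND4, a subunit of respiratory complex I, had 1387 counts in siControl and 657 in siCTGF (-0.87, -1.07 to -0.68), and ND4 with the overlapping ND4L together differed by -0.83. COX1, the most counted of them and named after its value was seen, had 44160 and 30275 counts (-0.34, -0.37 to -0.31). The mitochondrial rRNA RNR2 was at 31300 and 24200 CPM, a log2 difference of -0.37, beside -0.10 for RNR1. The 37 nuclear genes of the respiratory chain had a median of 0.05, with SDHC, a subunit of succinate dehydrogenase, over 1.3-fold (0.49). In the kahweol-treated pair, the direction of the mitochondrial mRNAs was the opposite, with a median of 0.33 and 4 of 13 over 1.3-fold. The share of mitochondrial RNA in the 2 untreated libraries therefore moved with the siRNA label, and its part in the other differences was not tested.

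Cytosolic ribosomal protein genes had a median of 0.16 over 45 genes, of which 40 lay above 0 and none past a threshold. The translation factors had a median of 0.12 over 25 genes, with EIF1, which selects the start codon, at 90.0 and 122 CPM (0.44, 0.37 to 0.51). Of the 57 lists examined, 4 had a median above 0.1, 12 had one below -0.1 and 41 lay within that range, and 11 had no member past a threshold.

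Among transcripts that do not code for protein, ZNF702P, a zinc finger pseudogene, was at 6.46 CPM in siControl against 16.9 CPM in siCTGF, a log2 difference of 1.38 (1.15 to 1.63). RPPH1, the RNA of RNase P that trims tRNA precursors, was at 1200 and 1790 CPM (0.57, 0.55 to 0.59), and the related RMRP at 2620 and 3150 CPM (0.27). The signal recognition particle RNAs RN7SL1 and RN7SL2 differed by 0.41 and 0.38, whereas RN7SL3, a near-identical copy, differed by -0.51, and the division of reads among these copies is uncertain. RN7SK, which holds back the elongation factor P-TEFb, differed by 0.04. Of the other leading ones, RN7SKP80, a 7SK pseudogene (0.69), the long noncoding RNA LINC01806 (0.79), the uncharacterized LOC101927476 (-0.71) and the miRNA host gene MIR3142HG (-0.65) overlap no gene on the same strand. EEF1A1P19, a pseudogene that overlaps C5orf34 on the same strand, differed by 0.72 alone and by 0.43 when summed with it.

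Of the 744 genes of the plain pseudogene class, 248 (33.3%) were over 1.3-fold and 97 (13%) under 0.7-fold, beside 9.63% and 8.99% of all genes. Among all genes with a mean count from 10 to 50, the shares were 27% and 29.1%. The 423 genes annotated separately as transcribed pseudogenes had 56 (13.2%) over and 77 (18.2%) under, with a median of -0.09 beside 0.18 for the 744. Of the 166 pseudogenes of ribosomal proteins, 75 (45.2%) were over and 14 under, with a median of 0.32, and the other 578 of the 744 had a median of 0.13. With kahweol these medians were -0.01 and 0.03. Many pseudogenes share sequence with their parent genes, so the assignment of their reads is uncertain. Read-through genes, which share reads with the genes they join, counted 40 over (28.2%) and 49 under (34.5%) among 142, with a median absolute log2 difference of 0.62 beside 0.17 for all genes.

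The difference also moved with the base composition of transcripts. The genes with a GENCODE 29 transcript, 15277 (92% of those kept), were divided by GC content into 5 bins of equal size. The share under 0.7-fold was 4.16% in the bin with the lowest GC content (30.2 to 41.1%) and 13.1% in that with the highest (58.3 to 76.3%), whereas the share over 1.3-fold was 7.4% in both. The median went from 0.03 in the lowest to -0.09 in the highest bin. Under kahweol the order was reversed, with medians of -0.04 and 0.11. The fibrillar collagens had a median GC content of 60.3% and the basement membrane and other collagens of 55.7%, beside 48.6% for all these genes. After the trend with GC content and length was removed, the medians were -0.32 for fibrillar collagens, -0.17 for the other collagens, -0.25 for laminins and nidogens, -0.47 for mitochondrial mRNAs and 0.16 for cytosolic ribosomal proteins. Of 122 named genes past a threshold, 11 no longer passed it, all of them lower genes, and CSPG4 (-0.41), BCL3 (-0.46), PDGFB (-0.44), CDKN1A (-0.48) and COL11A2 (-0.44) were among them.

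**Figure D5:**
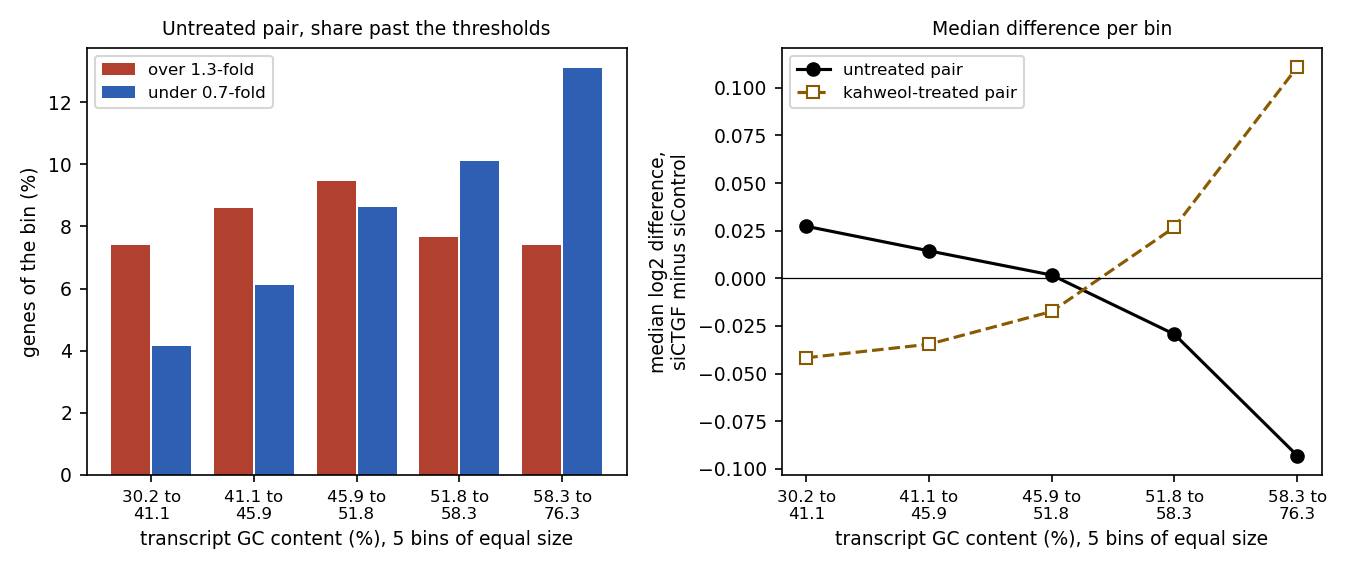
Left, percent of genes (y axis) over 1.3-fold (red) and under 0.7-fold (blue) in the untreated pair for bins of transcript GC content (x axis); right, median log2 difference per bin in the untreated (circles) and kahweol-treated pair (squares). The share under 0.7-fold goes from 4.16% to 13.1% from the lowest to the highest bin, and the medians of the pairs run in opposite directions.

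The kahweol-treated pair gives the same siRNA contrast in cells under treatment, and its libraries also entered the count minimum. Of the 1598 genes over 1.3-fold in untreated cells, 540 (33.8%) were over it in that pair as well and 241 (15.1%) were under 0.7-fold. Of the 1493 genes under 0.7-fold, 371 (24.8%) were under it again and 437 (29.3%) were over 1.3-fold, beside 7.83% and 14.7% of all genes in that pair. Among genes averaging 200 counts or more, 128 of 492 higher genes (26%) were higher again and 20 (4.07%) were lower, beside 6.41% and 2.18% of all 11486 genes at that level. Of the 252 lower genes at that level, 55 (21.8%) were lower again and 21 (8.33%) were higher. Of the 15 highest genes named above, 10 were over 1.3-fold in both pairs and 2 were under 0.7-fold with kahweol, and of the 15 lowest, 9 were under in both and 2 were over with kahweol.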

How the data were processed

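RNA of MDA-MB-231 cells was sequenced as 4 rRNA-depleted, stranded libraries, 1 per condition. According to the submitters' processing notes, the tools were FastQC 0.11.7, Trimmomatic 0.38, HISAT2 2.1.0, Bowtie2 2.3.4.1 and StringTie 2.1.3b with GRCh37.p13. The estimated counts of reads per gene were deposited by the authors as whole numbers without normalization. The authors derived the FPKM and TPM values in StringTie, and likewise the coverage signal in the tables of single libraries. Coverage divided by FPKM implied 104 to 106 aligned bases per count, so 2 reads were taken as 1 fragment. The strand setting is not given in the sources used here.

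Counts were scaled with TMM factors (edgeR 4.0.16, R 4.3.3) and expressed as log2 CPM after adding a prior count of 2. The count of a gene, averaged across the 4 libraries, had to reach 10. Differences over 1.3-fold or under 0.7-fold were counted. The 95% intervals are exact binomial ones (Clopper-Pearson) for how the fragments of a gene divide between both libraries, computed in Python 3.11.15 (scipy 1.17.1, pandas 2.3.3), and were tested on simulated data. PCR duplicates and variation between cultures are not covered. GC content and length came from GENCODE 29 and promoters from RefSeq, joined by gene name or identifier without conversion of coordinates, and trends were removed by lowess with fraction 0.3 (statsmodels 0.14.6). Overlaps were taken from the gene coordinates of the deposited tables.

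Named genes were CTGF and the genes of the study's qRT-PCR, the 15 highest and 15 lowest protein-coding genes (mean count of at least 200, no read-through symbol, ranked by the interval bound nearest 0), in each of 57 gene lists the 3 highest and 3 lowest members past a threshold (mean count of at least 50), the 5 highest and 5 lowest noncoding genes, and the promoters of the interferon-stimulated genes among them; these were 131 genes, of which the results of some are not reported here. Others are marked in the text or are list members between the thresholds. The comparison, the lists and this rule were chosen with earlier results of these data known. Alternatives were other scalings (total count, DESeq2 1.42.0 size factors, upper quartile), filters, prior counts, units, and protein-coding genes only.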

Additional observations from a re-analysis of the deposited data

Results flagged for a closer look

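For 8 of the named genes the siCTGF and siControl libraries lay past the fold thresholds in opposite directions in untreated and in kahweol-treated cells, with counting intervals that left out 0 in both pairs. With 1 library per condition, the difference between the pairs was not tested. TXNDC5 differed by 0.91 (log2) in the untreated and -0.55 in the kahweol-treated pair, and the read-through gene BLOC1S5-TXNDC5 that spans it by -6.37 and 7.56, whereas their sum differed by 0.19 and 0.06. HTD2 differed by 1.24 and -0.69, and its sum with RPP14 by 0.03 and 0.00. LOC114841035 differed by -1.33 and 1.44, and its sum with FKBP2 by -0.47 and -0.01. The remaining 4 overlap no gene on the same strand. FAM43A differed by -1.20 and 0.58. COL7A1, the collagen of anchoring fibrils, differed by -0.64 and 0.55. NEDD9, a focal adhesion scaffold, differed by -1.21 and 1.10. DLL4, a Notch ligand, differed by -1.38 and 0.50.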

How the results depend on the processing

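No paired analysis was possible because each condition holds 1 library. The CTGF difference kept its direction and size under every scaling, filter and unit tried, from -1.36 to -1.28. The number of genes over 1.3-fold and under 0.7-fold depended on the filter and unit. With a mean count of at least 100 the numbers were 625 and 414, and with any count in the pair 3740 and 3871. With log2(TPM + 1) they were 571 and 597, and with log2(FPKM + 1) 519 and 243. At a fold of 2 they were 322 and 494. Among protein-coding genes alone, scaled among themselves, 1023 were over 1.3-fold. With TMM, total-count, DESeq2 and upper-quartile scaling the higher genes numbered 1511 to 1622 and the lower genes 1479 to 1577, and the median of all genes moved by at most 0.02 against TMM. List medians moved by 0.1 or more in 6 of 570 recalculations, of which 3 were those of fibrillar collagens (-0.29, -0.10 and -0.05). The sign turned in 29, in 16 lists whose median was within 0.07 of 0. Of 1247 values of single genes under these settings, 54 left the counting interval, 53 of them in TPM or FPKM. Removal of the GC and length trend, added after seeing the data, left 1292 genes over and 1218 under among 15277. With 1.3-fold in either direction, also added then, 2257 genes were lower. Summing same-strand overlapping genes, a further addition, turned the sign of TNFSF13 (0.15) and BLOC1S5-TXNDC5 (0.20).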
